A study of Mus musculus with 3 samples.

Results

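The glycolysis and hypoxia genes comprised 35 named genes for glucose uptake, the enzymes of glycolysis, lactate handling, the gluconeogenic fructose bisphosphatases, entry into the pentose phosphate pathway and the hypoxia-inducible factor (HIF) system. They were taken by symbol from a table of 20677 genes, and all 35 were found in it. RNA was measured in mast cells sorted from mouse skin, on a mixed C57BL/6xCD1xFVB background, at 1 week after birth. The cells had been marked in the embryo by a pulse of 4’OHT (hydroxytamoxifen), the drug that activates an inducible Cre recombinase, so that they and their progeny carried the yellow fluorescent protein EYFP. The fetal HSC library came from Runx1Cre/EYFP mice, in which Runx1 drives the Cre, and the pulse was given at embryonic day 9.5. The late EMP library also came from Runx1Cre/EYFP mice and the pulse was given at day 8.5. The early EMP library, whose column the file heads ctrl, came from Csf1rCre/EYFP mice, in which Csf1r drives the Cre, and the pulse was given at day 8.5. EMP stands for erythro-myeloid progenitor and HSC for haematopoietic stem cell. Runx1 and Csf1r are active in more than one kind of early blood cell, so each name is that of the pulse rather than of a purified progenitor.

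Each origin had 1 library, so no difference below has a replicate check, no test was possible and no p-value is given. Values are FPKM, sequenced fragments scaled to the length of the transcript and to the size of the library, and can be compared between genes. Fold changes are log2((FPKM + 1) / (FPKM + 1)), and genes at least 2-fold apart on that scale were counted. Mast cell markers were high in all 3 libraries, 8 of 8 within 2-fold in every comparison, with Kit at 405 FPKM in the fetal HSC library, 606 in the late EMP and 414 in the early EMP library. Cre was driven by Csf1r in early EMP alone, so driver and origin cannot be told apart there. The female-specific RNA Xist was at 52.0 FPKM in the fetal HSC library, 0.53 in the late EMP and 25.6 in the early EMP library, and the Y-linked Ddx3y at 0.32, 38.5 and 20.7 FPKM in the same libraries. Sex and origin therefore cannot be told apart either, and the labels give neither the sex nor the number of animals. In bulk RNA, fewer cells of a type and less RNA per cell cannot be told apart.

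Glycolysis splits glucose into pyruvate in the cytosol, with a small yield of ATP that needs no oxygen. Lactate dehydrogenase then turns pyruvate into lactate, which regenerates the NAD that glyceraldehyde-3-phosphate dehydrogenase consumes. When oxygen is scarce, prolyl hydroxylases no longer mark HIF for destruction, and HIF raises the transcription of glucose transporters, glycolytic enzymes and the kinases that close pyruvate dehydrogenase. Mast cells draw on glycolysis when they degranulate and release cytokines.

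HIF binds the core letters ACGTG or GCGTG, and these were searched on both strands in the 250 bases before RefSeq starts (GRCm38.p6). A gene can have several starts, so some windows lie inside the span of the gene, before an internal start. The core ACGTG overlaps CACGTG, the E-box bound by Myc and related factors, which reads as the core on both strands. Windows were found for 33 of the 35 genes, all but Eno1b and Slc2a3. At least 1 core was present for 29 of the 33 (87.9%), against 61.1% of the 9296 measured genes with a window. Counted by window, 78.7% of 47 windows of these genes held a core, against 55.5% of 11771 windows. ACGTG was present for 18 of 33 genes (54.5%), against 25.6% of all, GCGTG for 20 of 33 (60.6%), against 49.6%, and CACGTG for 6 of 33 (18.2%), against 9.99%. The 4 genes without a core were Eno2, Fbp1, Gpi1 and Tpi1. The 33 genes include Hk3, which was under 1 FPKM in every library, while the 9296 were kept by that filter. The list was also drawn up in part from HIF targets, so its higher share of cores is not independent of that choice. A match is a description of the letters and not a site of binding.

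Printed below are the windows of Fbp2, Fbp1 and Gapdh, the genes with a window that lay furthest apart between libraries, and of Ldha and Pgk1, textbook HIF targets that did not. Each runs 5′ to 3′ on the strand of the gene, and capitals mark ACGTG or GCGTG read on either strand. No printed base lies in an exon of the GENCODE M21 annotation. The Fbp2 stretch is chr13:62858423-62858650 on the minus strand, shortened to 228 bases to leave out an exon, and holds a single CACGTG. The Fbp1 stretch, chr13:62888299-62888532 on the minus strand, shortened to 234 bases to end before the outermost RefSeq start of the gene, holds no core. The Gapdh stretch, chr6:125165774-125166023 on the minus strand, holds GCGTG once on each strand. It lies inside the span of the gene, downstream of the outermost RefSeq start. For Ldha the window with the most cores is shown, chr7:46845554-46845803 on the plus strand, with CACGTG at 2 places and ACGTG at a further place. This window too lies inside the span of its gene. Pgk1, chrX:106186850-106187099 on the plus strand, holds ACGTG once on each strand.
Fbp2: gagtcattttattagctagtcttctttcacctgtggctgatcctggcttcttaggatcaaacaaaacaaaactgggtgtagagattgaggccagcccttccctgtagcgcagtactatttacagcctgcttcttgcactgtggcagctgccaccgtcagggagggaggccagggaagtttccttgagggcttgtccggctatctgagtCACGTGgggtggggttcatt
Fbp1: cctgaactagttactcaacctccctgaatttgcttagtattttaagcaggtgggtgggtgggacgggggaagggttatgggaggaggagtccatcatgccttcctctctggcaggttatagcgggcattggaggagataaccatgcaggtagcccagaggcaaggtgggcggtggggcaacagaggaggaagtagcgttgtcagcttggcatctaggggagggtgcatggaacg
Gapdh: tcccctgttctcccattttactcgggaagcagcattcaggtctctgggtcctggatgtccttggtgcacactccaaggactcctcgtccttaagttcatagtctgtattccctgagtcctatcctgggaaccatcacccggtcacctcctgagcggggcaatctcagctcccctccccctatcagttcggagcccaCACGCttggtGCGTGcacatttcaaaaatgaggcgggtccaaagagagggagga
Ldha: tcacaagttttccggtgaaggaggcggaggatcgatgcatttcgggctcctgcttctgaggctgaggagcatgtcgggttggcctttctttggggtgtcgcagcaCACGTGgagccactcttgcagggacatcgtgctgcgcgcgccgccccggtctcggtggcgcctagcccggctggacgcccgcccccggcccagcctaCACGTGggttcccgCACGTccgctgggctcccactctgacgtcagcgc
Pgk1: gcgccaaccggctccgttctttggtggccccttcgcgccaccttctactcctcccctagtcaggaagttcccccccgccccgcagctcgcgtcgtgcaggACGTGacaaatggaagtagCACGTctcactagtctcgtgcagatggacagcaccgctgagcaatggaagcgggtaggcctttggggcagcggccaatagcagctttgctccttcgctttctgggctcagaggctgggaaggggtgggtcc

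**Figure D1:**
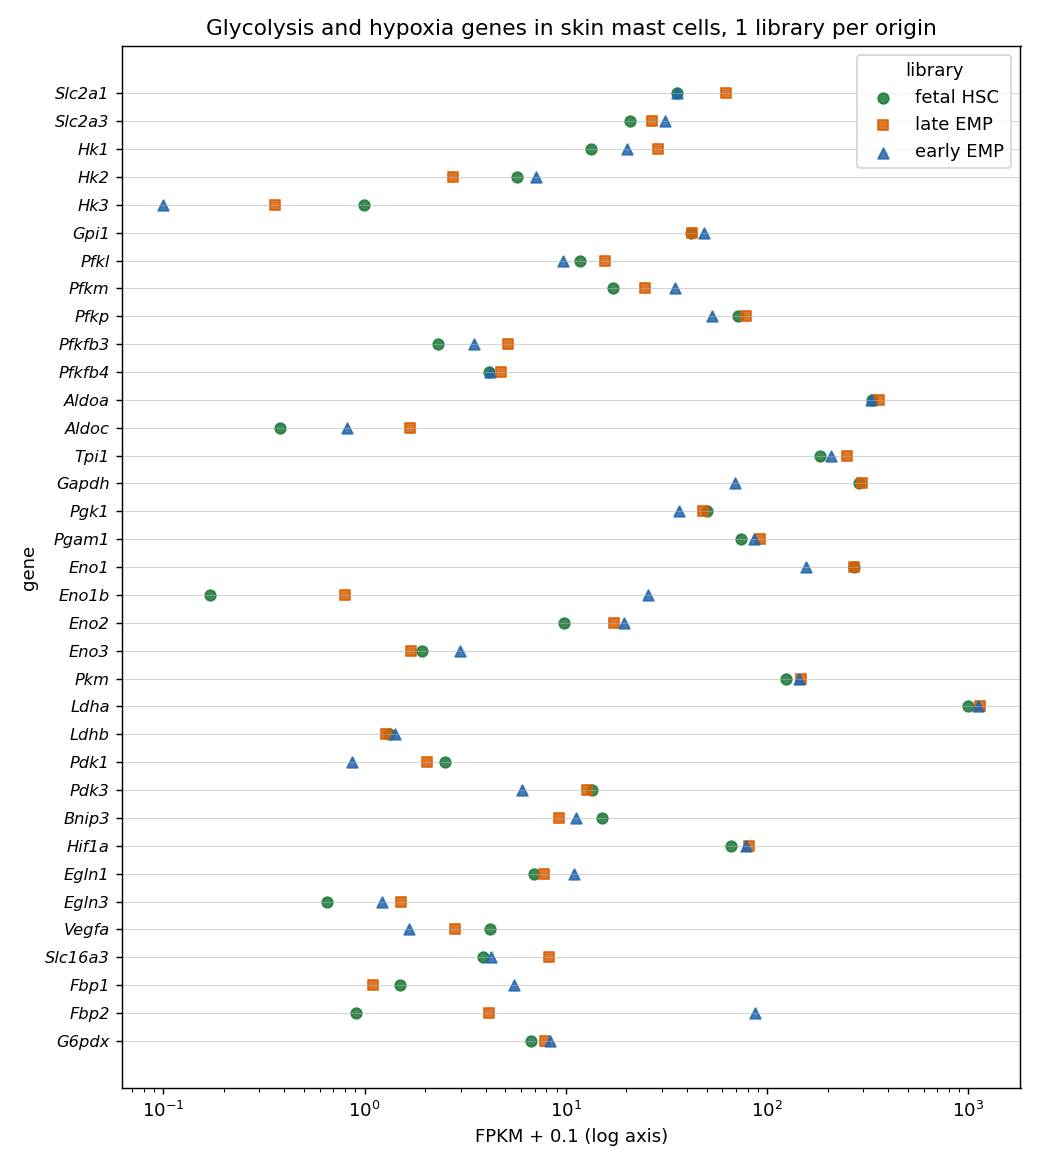
FPKM plus 0.1 on a log axis for each of the 35 genes, with a point for each library (fetal HSC, late EMP, early EMP). For most genes the 3 points lie close together, while Fbp2, Eno1b and Fbp1 are highest in the early EMP library and Gapdh is lowest there, at 68.9 FPKM.

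Ldha, the subunit of lactate dehydrogenase that favours lactate formation (chromosome 7, 46842274 to 46855627, GRCm38), was the most abundant of these genes in every library. It was at 1000 FPKM in the fetal HSC library, 1137 in the late EMP and 1118 in the early EMP library, ranks 49, 48 and 51 among 14412 measured genes. Its partner subunit Ldhb, which favours the reverse reaction, was at 1.22, 1.18 and 1.31 FPKM in the same libraries. Ldha made up 99.9% of the summed FPKM of the lactate dehydrogenases in the fetal HSC library and 99.8% in both EMP libraries. Slc16a3, the exporter of lactate, was at 3.79 FPKM in the fetal HSC library, 8.16 in the late EMP and 4.14 in the early EMP library. Slc16a3 was thus highest in the late EMP library, by less than 2-fold on the log2 scale given above. Ldha was level between the late EMP and early EMP libraries. Its log2 fold change for late EMP over early EMP was 0.03, and -0.03 when the libraries were rescaled by median-of-ratios factors. In plain FPKM, Slc16a3 was 2.15 times as high in late EMP as in fetal HSC.

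Glucose enters through the Slc2a transporters. Slc2a1, the basal transporter, was at 35.6 FPKM in the fetal HSC library, 62.6 in the late EMP and 35.5 in the early EMP library. Slc2a3, a transporter of high affinity, was at 20.8 FPKM in the fetal HSC library, 26.8 in the late EMP and 31.1 in the early EMP library. The order of the libraries differed between the pair, and neither was 2-fold apart in any comparison. Slc2a6, a lysosomal member, was at 20.1, 34.7 and 29.2 FPKM in the fetal HSC, late EMP and early EMP libraries. The summed FPKM of the 9 Slc2a genes in the table was 83.6 in fetal HSC, 141 in late EMP and 109 in early EMP, of which Slc2a1 held 42.6%, 44.5% and 32.4%. Slc2a8, an intracellular transporter, was at 1.65 FPKM in the fetal HSC library, 8.42 in the late EMP and 6.47 in the early EMP library. It was at least 2-fold lower in fetal HSC than in either EMP library.

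Hexokinases commit glucose to the cell by phosphorylation. Hk1, the broadly expressed form, was at 13.2 FPKM in the fetal HSC library, 28.5 in the late EMP and 20.1 in the early EMP library. Hk2, the inducible HIF target, was at 5.63 FPKM in the fetal HSC library, 2.65 in the late EMP and 6.99 in the early EMP library. Late EMP was thus highest for Hk1 and lowest for Hk2. The log2 fold change of Hk2 was -1.13 for late EMP over early EMP, and that of Hk1 was -1.05 for fetal HSC over late EMP; their other comparisons were within 2-fold. Hk2 accordingly made up 28.6% of the summed hexokinase FPKM in the fetal HSC library, 8.32% in late EMP and 24.8% in early EMP. Hk3 stayed under 1 FPKM in every library, at 0.89 in fetal HSC and 0.26 in late EMP, and was listed at 0 in early EMP; it was the only one of the 35 that did not pass the filter of 1 FPKM in at least 1 library. Gpi1, which isomerises glucose-6-phosphate, was at 41.6, 42.4 and 48.8 FPKM in the fetal HSC, late EMP and early EMP libraries.

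Phosphofructokinase sets the pace of glycolysis and has platelet, muscle and liver forms. Pfkp, the platelet form, was at 71.4 FPKM in the fetal HSC library, 78.5 in the late EMP and 53.2 in the early EMP library. Pfkm, the muscle form, was at 17.1 FPKM in the fetal HSC library, 24.6 in the late EMP and 34.95 in the early EMP library. Pfkl, the liver form, was at 11.6, 15.5 and 9.58 FPKM in those libraries. Pfkp was the leading form everywhere, while the muscle form took 17.1% of the family in fetal HSC, 20.8% in late EMP and 35.7% in early EMP. Pfkm lay just inside the 2-fold limit for fetal HSC over early EMP, with a log2 fold change of -0.99, and passed it at -1.03 with a pseudocount of 0.1 FPKM. Pfkfb3 and Pfkfb4 make the sugar phosphate that activates phosphofructokinase. Pfkfb3 was at 2.23 FPKM in the fetal HSC library, 5.08 in the late EMP and 3.40 in the early EMP library, and Pfkfb4 at 4.07, 4.66 and 4.10 FPKM in the same libraries.

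The middle of the pathway was close between libraries apart from Gapdh. Aldoa, the main aldolase, was at 330.4 FPKM in the fetal HSC library, 358 in the late EMP and 327 in the early EMP library. Tpi1, triose phosphate isomerase, was at 183 FPKM in fetal HSC, 249.9 in late EMP and 207 in early EMP. Pgk1, the phosphoglycerate kinase, was at 50.2 FPKM in fetal HSC, 47.8 in late EMP and 36.4 in early EMP. Pgam1, the phosphoglycerate mutase, was at 74.5, 92.4 and 86.0 FPKM in the fetal HSC, late EMP and early EMP libraries, and Pkm, the pyruvate kinase gene, at 123, 147 and 144 FPKM. No comparison reached 2-fold for these 5 genes, and the log2 fold change largest in size among them was 0.45, for Pgk1 in fetal HSC over early EMP. Aldoc, a minor aldolase, was at 0.28, 1.58 and 0.72 FPKM in the same libraries and passed the filter only through the late EMP library; its log2 fold change of -1.01 for fetal HSC over late EMP lay at the 2-fold limit.

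Gapdh (chromosome 6, 125161852 to 125166467), the enzyme between aldolase and phosphoglycerate kinase and a common reference gene, was at 287 FPKM in the fetal HSC library, 295 in the late EMP and 68.9 in the early EMP library. The early EMP library stood apart and the other two lay close together. Its log2 fold change was 2.04 for fetal HSC over early EMP, 2.08 for late EMP over early EMP, and -0.04 where fetal HSC was set against late EMP. It ranked 219th in fetal HSC, 207th in late EMP and 984th in early EMP. No near-identical copy of Gapdh was found among the table genes that have a GENCODE transcript matched by gene number. Table entries without such a transcript were not searched. Next to its start lies Ncapd2, a condensin subunit of mitotic chromosomes, at 6.35 FPKM in fetal HSC, 6.91 in late EMP and 1.03 in early EMP. The other neighbours were within 2-fold: Mrpl51 was at 22.7, 23.4 and 21.2 FPKM in the fetal HSC, late EMP and early EMP libraries, Iffo1 at 13.3, 18.4 and 23.1 FPKM, and Nop2 at 10.2, 12.1 and 6.45 FPKM. Mitosis genes moved with Gapdh, with 19 of 20 at least 2-fold higher in each of the fetal HSC and late EMP libraries than in early EMP. Of all measured genes, 8.19% were that far higher in fetal HSC and 8.65% in late EMP. The mitosis genes summed to 294, 286 and 53.9 FPKM in fetal HSC, late EMP and early EMP. Neutrophil markers, 4 of 6 found, summed to 112, 47.9 and 3.02 FPKM in the same libraries. Mpo, the myeloperoxidase, was at 47.9, 39.2 and 0.88 FPKM, while S100a8 was at 28.95 FPKM in fetal HSC, listed at 0 in late EMP and at 1.30 in early EMP, and Ly6g was at 0.42 FPKM or less in every library. The part of either list in the result was not tested.

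Enolase also differed, and here the estimate depends on how reads were assigned. Eno1, the main enolase, was at 270.6 FPKM in the fetal HSC library, 269 in the late EMP and 156 in the early EMP library. Eno1b, a near-identical copy of Eno1, was at 0.07 FPKM in fetal HSC, 0.70 in late EMP and 25.4 in early EMP. Their annotated transcripts matched at 99.5% of 1736 aligned bases, so reads can be moved between them. At the depth implied by the steps between low values, Eno1b stood on about 2 fragments in fetal HSC, 18 in late EMP and 646 in early EMP. Eno1b alone had log2 fold changes of -4.62 for fetal HSC over early EMP and -3.96 for late EMP over early EMP. It passed the filter of 1 FPKM only through early EMP, so the filter fixed its direction. The summed pair was at 270.7 FPKM in fetal HSC, 269 in late EMP and 182 in early EMP. Its log2 fold changes were 0.57 for fetal HSC over early EMP and 0.56 for late EMP over early EMP, opposite in sign to Eno1b alone. Eno1b made up 0.026% of the pair in fetal HSC, 0.26% in late EMP and 14.0% in early EMP, so the sum mostly follows Eno1 by construction. Eno2, the neuronal enolase, was at 9.67, 17.2 and 19.4 FPKM in the fetal HSC, late EMP and early EMP libraries, and Eno3, the muscle enolase, at 1.82, 1.61 and 2.89 FPKM.

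The fructose bisphosphatases, which run the phosphofructokinase step backwards in gluconeogenesis, included the gene furthest apart. Fbp2, the muscle form (chromosome 13, 62836884 to 62858400), was at 0.81 FPKM in the fetal HSC library, 4.04 in the late EMP and 87.0 in the early EMP library. Fbp1, the liver form and its neighbour (chromosome 13, 62864753 to 62888298), was at 1.40 FPKM in fetal HSC, 1.00 in late EMP and 5.46 in early EMP. Both genes were highest in the early EMP library, where Fbp2 ranked 764th, against 11226th in fetal HSC and 7913th in late EMP. Fbp2 had log2 fold changes of -5.60 for fetal HSC over early EMP, -4.13 for late EMP over early EMP, and -1.48 where fetal HSC was set against late EMP. Fbp1 had log2 fold changes of -1.43, -1.69 and 0.26 in these comparisons; with a pseudocount of 5 FPKM its differences from early EMP came to -0.71 and -0.80, under 2-fold. By the implied depth, Fbp2 stood on about 17 fragments in fetal HSC, 76 in late EMP and 1627 in early EMP, with exact Poisson 95% intervals of 0.477 to 1.31 FPKM, 3.18 to 5.06 FPKM and 82.8 to 91.4 FPKM that cover counting error only. In plain FPKM, without the pseudocount, Fbp2 was 107 times as high in early EMP as in fetal HSC and 21.5 times as high as in late EMP.

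Gm5141, the nearest gene on the side of Fbp2, was at 0.37, 1.34 and 1.72 FPKM in the fetal HSC, late EMP and early EMP libraries, and 2010111I01Rik, the nearest on the side of Fbp1, at 10.9, 10.8 and 17.1 FPKM. Both were within 2-fold on the pseudocount scale, Gm5141 by a narrow margin at -0.99 for fetal HSC over early EMP. Of the next genes out, 6720489N17Rik, beyond Gm5141, was at 1.57, 5.46 and 5.03 FPKM in those libraries, with a log2 fold change of -1.23 for fetal HSC over early EMP. Gm16907, beyond 2010111I01Rik, was at 2.67, 2.52 and 0.51 FPKM, with 1.28 for fetal HSC over early EMP and 1.22 for late EMP over early EMP, opposite in direction to Fbp1 and Fbp2. Of 12 skeletal muscle markers 8 were in the table and 3 passed the filter. The 8 summed to 13.8 FPKM in fetal HSC, 9.14 in late EMP and 8.63 in early EMP. Acta1, the skeletal actin, was at 0.22, 0.05 and 0.25 FPKM and Ckm, the muscle creatine kinase, at 0.60, 0.96 and 0.46 FPKM in those libraries, and Mylpf, a fast myosin light chain, at 5.14, 6.49 and 6.64 FPKM. Tnni2, a fast troponin, was highest in fetal HSC, at 7.80, 1.23 and 0.21 FPKM, while Myh4, a fast myosin, was listed at 0 in fetal HSC and was at 0.07 FPKM in late EMP and 1.06 in early EMP. Without Tnni2, left out after its values were seen, the other 7 markers summed to 5.98 FPKM in fetal HSC, 7.91 in late EMP and 8.42 in early EMP, the reverse order of the full sum. Erythroid markers, 7 of 8 found, summed to 15.2 FPKM in fetal HSC, 18.5 in late EMP and 186 in early EMP, and were led by Hba-a1, an alpha globin, at 5.85, 7.95 and 124 FPKM, although Alas2, the erythroid enzyme of haem synthesis, was at 0.04 FPKM or less in every library and Ahsp, a globin chaperone, ran the other way, at 1.5 and 2.94 FPKM in fetal HSC and late EMP and listed at 0 in early EMP. Macrophage markers, 8 of 8 found, summed to 22.9, 54.8 and 79.7 FPKM in fetal HSC, late EMP and early EMP, with C1qb at 3.96, 13.3 and 20.4 FPKM. Not all kept that order: Adgre1 was highest in late EMP, at 0.04, 2.18 and 0.50 FPKM. Cd68 was lowest in late EMP, at 9.70, 6.44 and 17.8 FPKM in the same libraries. The part of the muscle, erythroid and macrophage markers in the result was not tested.

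**Figure D2:**
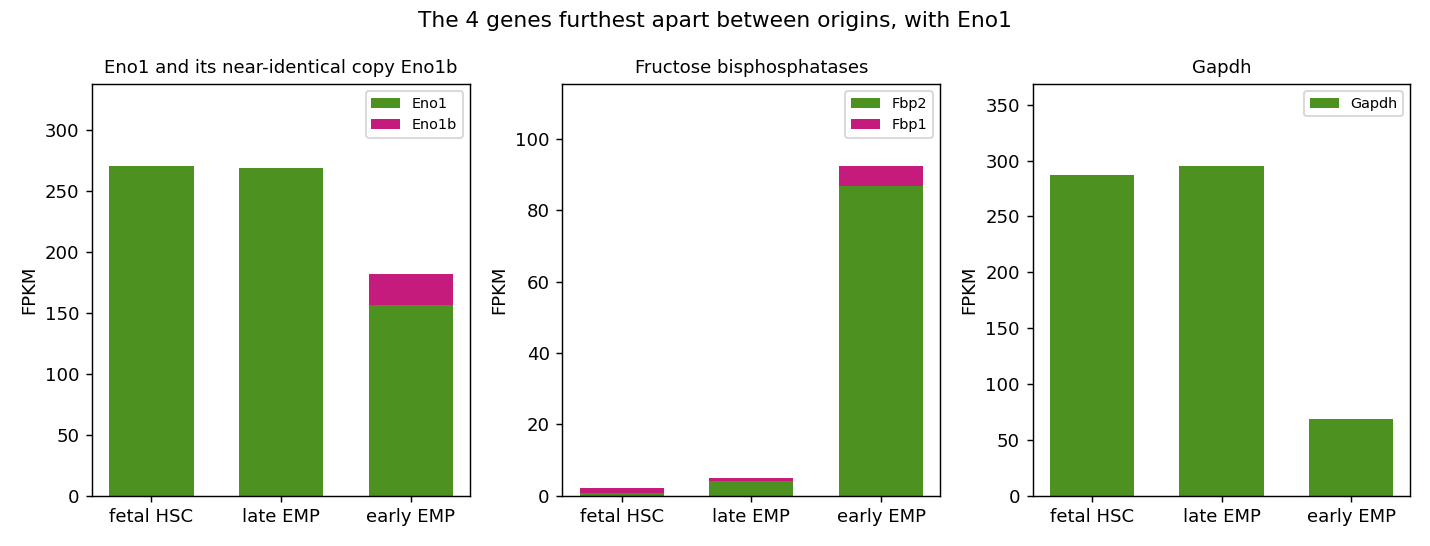
FPKM in the fetal HSC, late EMP and early EMP libraries for Eno1 with Eno1b stacked on it, Fbp2 with Fbp1 stacked on it, and Gapdh. The summed enolase pair was at 270.7 FPKM in fetal HSC, 269 in late EMP and 182 in early EMP, the Fbp pair was high in early EMP alone, at 92.5 FPKM, and Gapdh was low in early EMP.

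Pyruvate dehydrogenase kinases close the entry of pyruvate into the mitochondrial cycle. Pdk1, a HIF target, was at 2.41 FPKM in the fetal HSC library, 1.94 in the late EMP and 0.77 in the early EMP library. Pdk3, on the X chromosome, was at 13.4 FPKM in fetal HSC, 12.7 in late EMP and 5.99 in early EMP. Both were lowest in early EMP. Pdk1 had log2 fold changes of 0.95 for fetal HSC over early EMP and 0.73 for late EMP over early EMP, under 2-fold. Pdk3 passed the 2-fold limit for fetal HSC over early EMP, with a log2 fold change of 1.05, and lay just under it for late EMP over early EMP, with 0.97. Pdk2 was the most abundant of the family, at 17.2 FPKM in fetal HSC, 23.1 in late EMP and 24.6 in early EMP, in the opposite order. The share of Pdk2 in the summed kinases was therefore 52.1% in fetal HSC, 61.2% in late EMP and 78.5% in early EMP. Pdp1, the phosphatase that opens the enzyme again, was at 5.04, 4.65 and 1.52 FPKM, at least 2-fold higher in fetal HSC and in late EMP than in early EMP. G6pdx, which diverts glucose-6-phosphate into the pentose phosphate pathway, was at 6.60, 7.78 and 8.21 FPKM in those libraries.

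**Figure D3:**
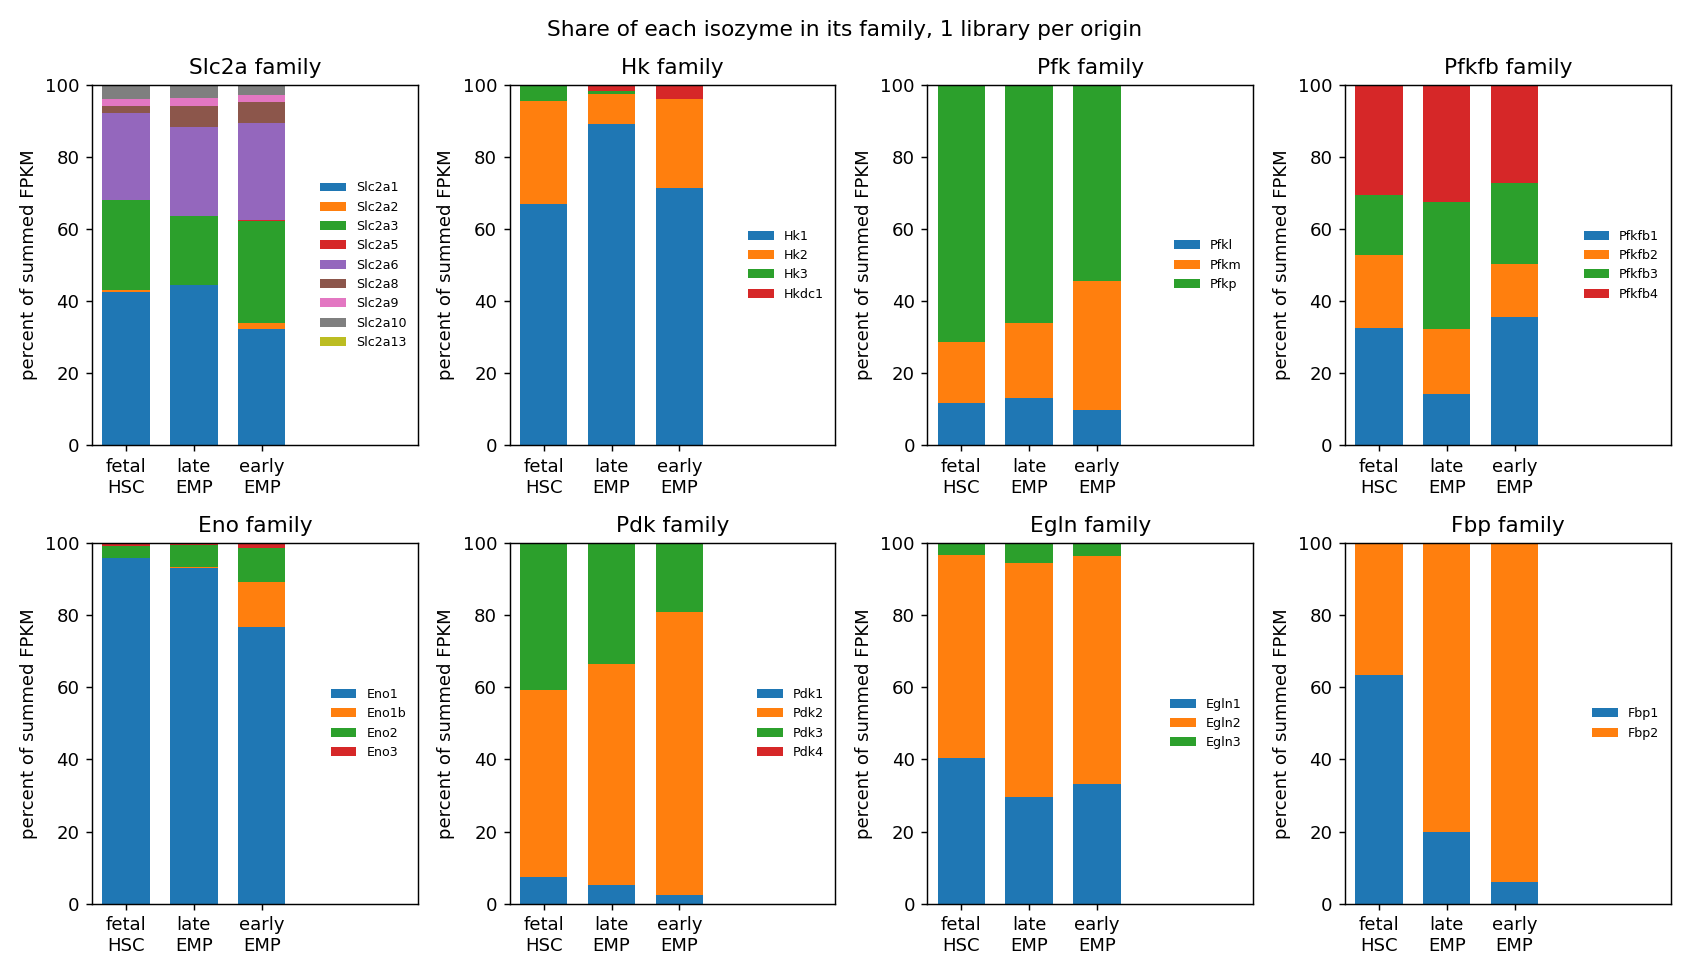
Percent of the summed FPKM of 8 gene families held by each measured member, in the fetal HSC, late EMP and early EMP libraries. Hk2 is smallest in late EMP at 8.32%, Pfkm is largest in early EMP at 35.7%, and Pdk2 is largest in early EMP at 78.5%.

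The HIF subunit Hif1a was at 66.0 FPKM in the fetal HSC library, 80.9 in the late EMP and 78.1 in the early EMP library. The second oxygen-regulated subunit, Epas1, was listed at 0 in fetal HSC and early EMP and at 0.17 FPKM in late EMP. Arnt, the partner subunit, was at 8.52, 14.7 and 12.3 FPKM in the fetal HSC, late EMP and early EMP libraries. Hif1a was the main oxygen-regulated subunit in all 3 libraries and its RNA was within 2-fold. Among the prolyl hydroxylases, Egln1 was at 6.84 FPKM in fetal HSC, 7.68 in late EMP and 10.9 in early EMP, and Egln3, itself induced by HIF, at 0.55, 1.42 and 1.12 FPKM. Egln2 was the most abundant of them, at 9.58 FPKM in fetal HSC, 16.8 in late EMP and 20.7 in early EMP, and was at least 2-fold lower in fetal HSC than in early EMP (log2 -1.04).

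Some HIF targets had their highest level in fetal HSC, among them Pgk1 and Pdk1, given above, and Vegfa and Bnip3. Others did not: Ldha and Egln3 were lowest there, and Hk2 was highest in early EMP. Of the 34 measured genes, 6 (17.65%) were highest in fetal HSC, against 25.74% of all genes and 28.66% of those with a symbol. Vegfa, the endothelial growth factor, was at 4.12 FPKM in fetal HSC, 2.73 in late EMP and 1.56 in early EMP. Its log2 fold change of 1.00 for fetal HSC over early EMP sits exactly on the 2-fold limit and went under it, at 0.99, when the libraries were scaled to the same summed FPKM. Bnip3, which marks mitochondria for removal, was at 15.1 FPKM in fetal HSC, 9.17 in late EMP and 11.1 in early EMP, within 2-fold. A wider list of 30 HIF targets had 21 measured members. In it, 2 genes were 2-fold or more above early EMP in fetal HSC and 1 gene was in late EMP, and no gene was that far below. Of all measured genes, 8.19% were higher in fetal HSC and 8.65% in late EMP than in early EMP, so 2 and 1 of 21 lie near the background. The shares of all genes that far below early EMP were 17.8% in fetal HSC and 10.8% in late EMP. For genes with a symbol they were 8.6% and 4.24%. Tfrc, the transferrin receptor, was higher in both, at 7.84 FPKM in fetal HSC, 8.57 in late EMP and 1.98 in early EMP, and Adm, a vasodilator peptide, was 2-fold or more higher in fetal HSC than in either EMP library, at 2.78, 0.89 and 0.05 FPKM. Adm passed the filter only through fetal HSC, and its log2 fold change of 1.00 over late EMP sits exactly on the limit. The abundant targets were close, with Ndrg1 at 127, 156 and 131 FPKM in the fetal HSC, late EMP and early EMP libraries and Mif, a cytokine, at 139, 135 and 144 FPKM. The list had medians of 0.03 for fetal HSC over early EMP, 0.20 for late EMP over early EMP, and 0.01 where fetal HSC was set against late EMP, on the log2 scale.

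Counted together, 34 of the 35 genes passed the filter. For late EMP over early EMP, 5 of 34 were at least 2-fold apart, Gapdh higher and Fbp2, Eno1b, Fbp1 and Hk2 lower, which is 14.7% against 19.5% of all 14412 measured genes (8.65% higher, 10.8% lower) and 11.8% of the 11529 with a symbol (7.55% higher, 4.24% lower). For fetal HSC over early EMP, 6 of 34 were, Gapdh, Pdk3 and Vegfa higher and Fbp2, Eno1b and Fbp1 lower, 17.6% against 26.0% of all genes (8.19% higher, 17.8% lower) and 16.7% of those with a symbol (8.08% higher, 8.6% lower). For fetal HSC over late EMP, 3 of 34 were, Fbp2, Hk1 and Aldoc, all lower, 8.82% against 11.7% of all genes (3.46% higher, 8.26% lower) and 8.09% of those with a symbol (2.73% higher, 5.36% lower). These shares lay near or under the background, so the number of genes apart is not a result about the pathway. At 4-fold, Gapdh, Fbp2 and Eno1b were apart in both comparisons with early EMP. Of all genes, 1.6% were for late EMP over early EMP and 2.31% for fetal HSC over early EMP. Eno1b passed the filter only through early EMP, so the filter fixed its direction, and its sum with Eno1 went the other way. None of the genes was 4-fold apart for fetal HSC over late EMP, against 0.874% of all genes. The last comparison was the least settled: the count of 3 became 8 with a pseudocount of 0.1 FPKM, 0 with 5 FPKM and 1, Fbp2, with median-of-ratios factors. Scaling also shifted the splits of higher and lower genes, to 2 and 4 for late EMP over early EMP with equal sums, and to 2 and 4 for fetal HSC over early EMP without the 50 most abundant genes.

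**Figure D4:**
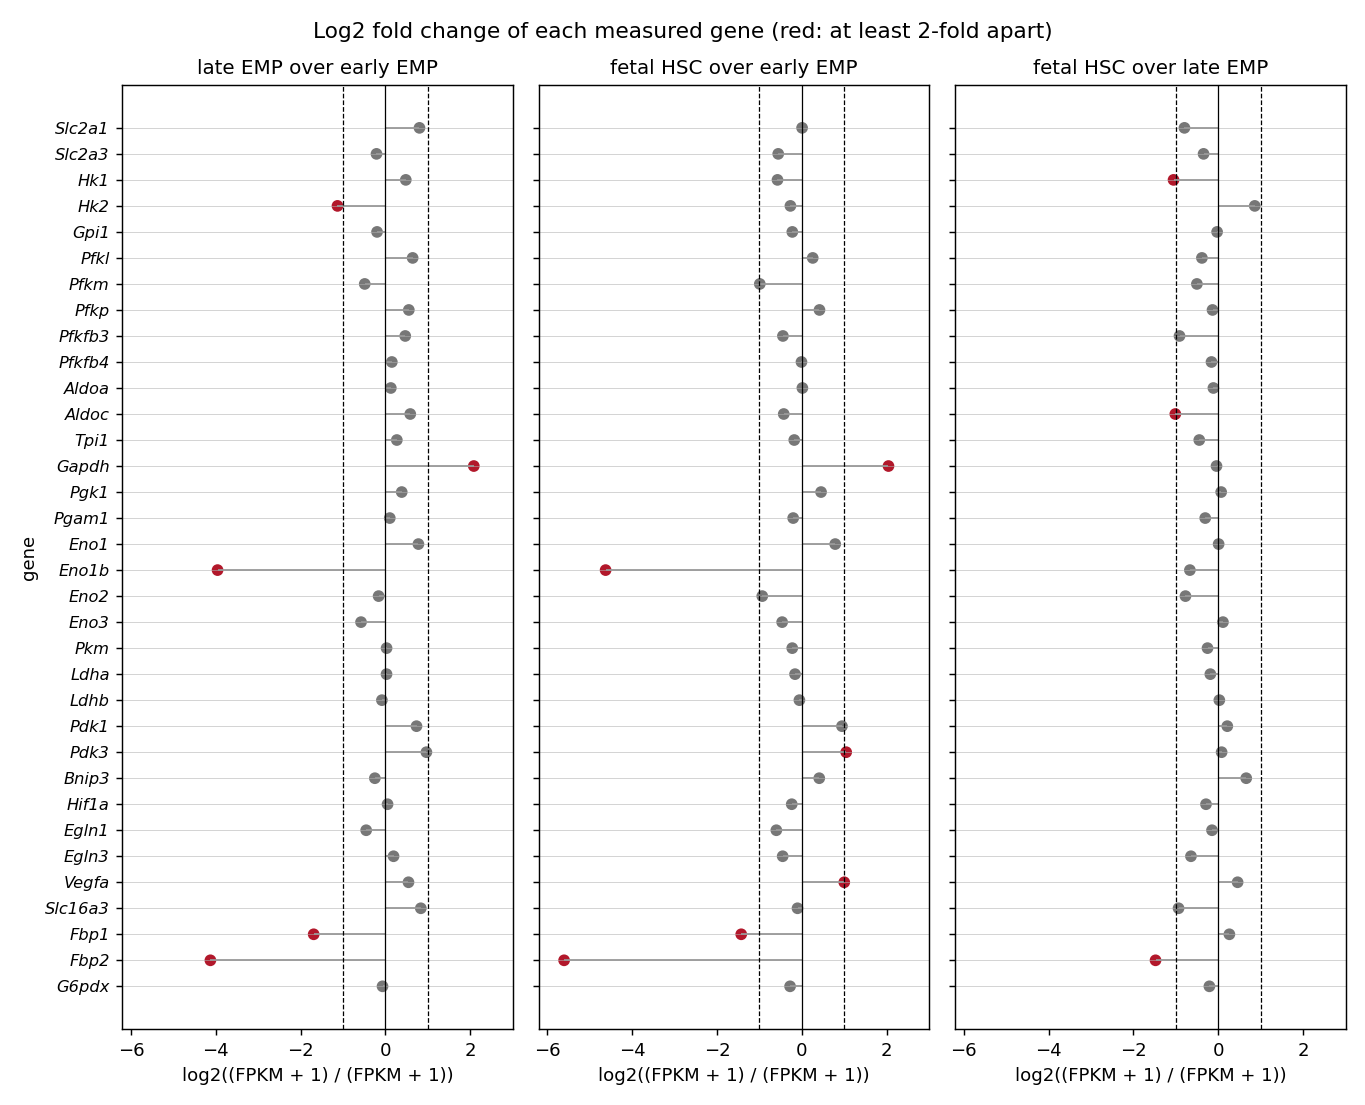
Log2 fold change of the 34 measured genes in the 3 pairwise comparisons, named above the panels, with dashed lines at 2-fold and red points for genes at least 2-fold apart. Fbp2 and Eno1b lie far to the left and Gapdh to the right in the comparisons with early EMP, which share that library, and most other points lie between the lines.

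The medians were small. For late EMP over early EMP the median log2 fold change was 0.11, against 0.00 for all genes and 0.06 for genes with a symbol, with 21 genes above 0 and 13 below. For fetal HSC over early EMP it was -0.21, against -0.11 and -0.03, with 11 above and 23 below. For fetal HSC over late EMP it was -0.20, against -0.10 and -0.08, with 10 above and 24 below, and -0.071 against 0.00 for all genes with median-of-ratios factors. The fetal HSC library was the lowest of the 3 for 19 of the 34 genes (55.9%), as it was for 45.5% of all genes and 39.3% of those with a symbol. The late EMP library was the highest for 16 of 34 (47.1%), against 33.1% and 35.8%. The 18 glycolytic enzymes summed to 1492 FPKM in fetal HSC, 1672 in late EMP and 1249 in early EMP, and without Gapdh to 1205, 1377 and 1180 FPKM. The log2 difference of late EMP from early EMP was 0.42 with it and 0.22 without it, and that of fetal HSC was 0.26 with it and 0.03 without it.

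**Figure D5:**
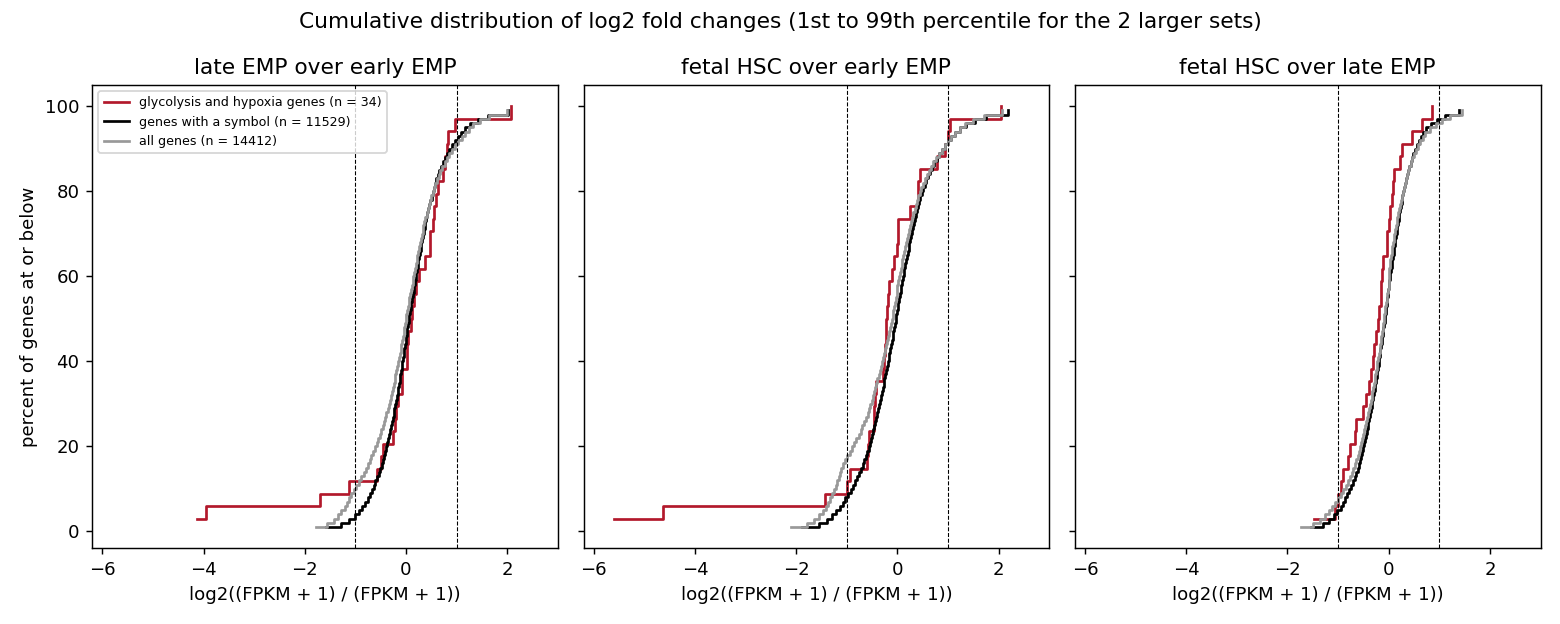
Percent of genes at or below each log2 fold change, for the 34 measured glycolysis and hypoxia genes, all genes with a symbol and all genes, in the 3 comparisons; dashed lines mark 2-fold. The medians of the 34 genes, at 0.11, -0.21 and -0.20 from left to right, lie close to those of the larger sets, and the 2 lowest genes in the first and second panels are Fbp2 and Eno1b.

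Neighbouring pathways were read from wider lists. In the pentose phosphate pathway 8 genes were measured, and Rpe, the ribulose phosphate epimerase, was at 18.02 FPKM in fetal HSC, 18.7 in late EMP and 7.61 in early EMP. Tktl1, a transketolase-like gene, was at 2.14, 1.71 and 0.06 FPKM, so 2 of 8 were higher and none lower in each of the fetal HSC and late EMP libraries than in early EMP. Tktl1 passed the filter only through the libraries where it was high. The shares of all measured genes were 8.19% higher and 17.8% lower for fetal HSC over early EMP, 8.65% and 10.8% for late EMP over early EMP, and 3.46% and 8.26% when fetal HSC was set against late EMP, and the counts of this and the following lists, each of few genes, stand beside these shares. Of 14 glycogen genes 1 was higher and none lower in late EMP than in early EMP, none was apart for fetal HSC over early EMP, and 1 was lower in fetal HSC than in late EMP. That gene was Gys1, the glycogen synthase of most tissues, at 0.51 FPKM in fetal HSC, 5.05 in late EMP and 1.91 in early EMP. Of 5 further gluconeogenic genes measured, Slc37a4, the glucose-6-phosphate transporter, was 2-fold lower in fetal HSC, at 6.57 FPKM against 15.5 in early EMP, with 11.8 in late EMP. Pck1 and G6pc, the enzymes that begin and end gluconeogenesis in liver, were at 0.10 FPKM or less in every library. The high Fbp2 of the early EMP library thus stood beside near-absent RNA for both of these enzymes. Their relatives G6pc3 and Pck2, in the same list, were present in every library. G6pc3 was at 10.8, 10.3 and 10.05 FPKM and Pck2 at 4.26, 7.25 and 5.91 FPKM in fetal HSC, late EMP and early EMP.

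Of 8 further isozymes of glycolysis measured, none was higher in either comparison with early EMP, and 2 were lower in each. For fetal HSC these were Pgam2 and Hkdc1 and for late EMP Pgam2 and Pfkfb1. Pgam2 and Hkdc1 passed the filter only through early EMP, where they were highest, so the filter fixed their direction. Pgam2, the muscle phosphoglycerate mutase, was at 0.08 FPKM in fetal HSC, listed at 0 in late EMP and at 1.53 in early EMP, low throughout. Transporters of other hexoses and monocarboxylates gave 1 higher and 1 lower of 9 for fetal HSC over early EMP. Slc16a7, a monocarboxylate transporter, was the higher gene, at 14.6 FPKM in fetal HSC, 12.4 in late EMP and 6.40 in early EMP. Bsg, the chaperone that carries lactate transporters to the membrane, was at 199.9, 189 and 160 FPKM in the same libraries. Of 12 regulators of glycolytic transcription, Myc, which also drives cell growth, was the one at least 2-fold apart, at 5.26 FPKM in fetal HSC, 10.6 in late EMP and 1.59 in early EMP. Its log2 fold changes were 1.27 for fetal HSC over early EMP and 2.16 for late EMP over early EMP.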

How the data were processed

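Per the labels' protocols, TRIzol was used to extract RNA from the sorted cells and an Illumina HiSeq to sequence it. Per the file headers, the values the authors deposited are FPKM per gene, in 1 column for each of the 3 libraries. The column headed as a control was matched to the early EMP library by its sample description. The submitters' processing notes list the tools RSEM and Bowtie2, without versions, and the builds GRCm38 and mm10; an estimator of this kind divides reads between near-identical copies.

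The 35 genes, the wider lists and the rule for naming their genes (per list, among genes reaching 5 FPKM, the 2 with the highest level and at most 4 with the largest fold change, plus defining markers and the neighbours of genes 4-fold apart) were chosen with earlier results of these data known. A few lower list genes, and the use of Xist and Ddx3y, were chosen after their values were seen. Genes at 1 FPKM or more in at least 1 library were kept. Fold changes used a pseudocount of 1 FPKM, which makes them smaller than the plain ratios, most of all for low genes. No test was possible, so counts and medians stand beside those of all measured genes. Depth is not stated. The steps in low FPKM of single-transcript genes implied 17100000, 15500000 and 15400000 fragments in the fetal HSC, late EMP and early EMP libraries. Of the values used, 60.3%, 59.7% and 65.8% lay within 0.15 of a whole number, against 30% by chance for a step fixed beforehand; the step was fitted to these same values, so the depth is imprecise. Copies were table genes whose GENCODE M21 transcripts aligned at 95% identity or more over at least 50% of the shorter transcript. Promoter letters and coordinates come from RefSeq, GRCm38.p6. The counting step was tested on simulated data. The alternatives changed the pseudocount (0.1 or 5 FPKM), the filter (none, or 5 FPKM), the scaling (equal sums, equal sums without the 50 most abundant genes, or median-of-ratios factors) and the treatment of copies (summed). The software was matplotlib 3.10.9, scipy 1.17.1, pandas 2.3.3 and numpy 2.4.6 under Python 3.11.15.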

Additional observations from a re-analysis of the deposited data

How the results depend on the processing

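Of the log2 fold changes of single genes recomputed under 8 alternatives, 766 stayed at least 2-fold apart in the same direction or stayed within 2-fold. A change of sign within 2-fold was not counted, as for Ldha, at -0.03 for late EMP over early EMP with median-of-ratios factors. Another 14 newly passed 2-fold, 13 no longer did, and 2 that were at least 2-fold apart turned. Those that turned were Eno1b summed with Eno1, at 0.57 for fetal HSC over early EMP and 0.56 for late EMP over early EMP; the sum is mostly Eno1 by construction. With a pseudocount of 0.1 FPKM, the number of genes at least 2-fold apart was 8 for late EMP over early EMP and 8 for fetal HSC over late EMP. With 5 FPKM it was 3 for late EMP over early EMP, 3 for fetal HSC over early EMP and 0 for fetal HSC over late EMP, since a larger pseudocount shrinks the change of low genes. With median-of-ratios factors the fetal HSC over late EMP count was 1 and its median -0.071; these factors set the median of all genes to 0.00 there, against -0.10 as deposited. The other counts stayed within 1.5 times and the other medians within 0.1. With 1 library per group no replicate could be left out. No paired analysis was possible because each group has 1 library. Genes under 1 FPKM rest on few fragments and their differences are the least certain.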
